A study of Rattus norvegicus with 241 samples.

Results

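CD45+ leukocytes from the mammary glands of 13 adult female ACI rats were compared between 6 parous and 7 virgin animals. These 13 samples, 1 per rat, are the CD45+ samples of the experiment on adult virgin and parous rats, out of 241 samples in the series, and were chosen by their labelled strain, experiment, sorted fraction and parity. The virgin rats comprised 4 given vehicle and 3 given TGFBRi, and the parous rats 2 given vehicle and 4 given TGFBRi. TGFBRi is LY2157299 (galunisertib), a drug that blocks the kinase of the type I TGFβ receptor. Rats aged 18 to 24 weeks at dosing received 75 mg/kg of it or vehicle by oral gavage, with 2 doses per day for 10 days, and glands were taken on day 0 after the last dose. All rats were of the inbred ACI strain, which develops mammary tumors under estrogen. Parity was what the rats brought to the experiment: the animals were purchased as virgin or parous, and neither the number of litters nor the time since the last one is given in the sources used here. The parous vehicle group holds 2 rats only, which limits it as a model of parity without drug.

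Leukocytes live in the fat pad and along the ducts of the mammary gland throughout adult life. Macrophages line the epithelium, T cells and B cells patrol it, and mast cells and eosinophils take part in ductal growth. Pregnancy, lactation and the regression that follows each remodel these populations, with plasma cells feeding antibody into milk and macrophages clearing dying epithelium. The study followed how TGFBRi acts on glands of virgin and of parous rats. The comparison described here asks how leukocytes of parous and of virgin glands differed, with treatment held as a covariate.

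Samples held 21591260 to 35423867 reads on genes, with a median of 25460524, and 10962 to 13049 genes had at least 1 read. A further 30.7 to 40.4% of reads were not assigned to a single gene. Levels below are normalised read counts, that is reads divided by a size factor for each sample. PTPRC, which encodes CD45 itself, ranged from 12248 to 24636 with a median of 21770 in virgin rats and from 17814 to 29930 with a median of 22572 in parous rats. The sorting antigen was thus abundant in all samples and overlapped between the groups. In sorted luminal cells of the same glands PTPRC had a median of 0.718 CPM (reads scaled to a common total of 1e6 on genes), against 848 CPM in CD45+ samples. The B cell gene CD79A and the plasma cell gene JCHAIN were not analysed here.

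A pair of virgin libraries stood apart, and this pair was chosen after the data were seen. The library of virgin TGFBRi replicate 2 had the fewest genes detected (10962) and correlated with the other 12 samples at a median of 0.809 across genes, whereas the median for each other sample lay between 0.886 and 0.937. The library of virgin vehicle replicate 1 had the most epithelial RNA. Its EPCAM, an epithelial surface protein, stood at 38378, while the other 12 samples held 2632 to 7682. Its KRT18, a luminal keratin, stood at 29682 against at most 11031 elsewhere. Values without this pair are given below for each list and each gene whose log2 difference turned sign, and for some of the others. For the epithelial genes of the next paragraphs, the log2 differences of EPCAM, KRT18 and CSN3 were −0.69, −0.61 and −0.63 with and −0.24, −0.15 and 0.10 without the pair.

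RNA of other gland cells was present in every sample despite the sort. CSN3, the milk protein κ-casein, ranged from 10023 to 205834 with a median of 16280 in virgin rats and from 3111 to 89301 with a median of 30823 in parous rats. Both groups thus spanned high and low samples and overlapped. Summed over 17 milk genes, the level ranged from 2338 to 15799 CPM in virgin and from 1288 to 10906 CPM in parous rats. Over 15 fibroblast genes the summed level ranged from 448 to 7117 CPM in virgin and from 505 to 2054 CPM in parous rats. The part of this RNA in the comparisons below was not tested.

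The makeup of the leukocytes varied widely between rats within each parity group. CSF1R, the receptor that macrophages need to survive, ranged from 2084 to 41564 with a median of 13450 in virgin rats. In parous rats it ranged from 7361 to 41480 with a median of 10098. CD79B, a chain of the B cell receptor complex, ranged from 17.4 to 9664 with a median of 3982 in virgin rats and from 121 to 9323 with a median of 5836 in parous rats. High samples of CSF1R and low samples of CD79B were found in both parity groups and under both treatments. The lowest samples of CSF1R, at 2084, 3598 and 3692, were all virgin. The 4 samples with the lowest CD79B (17.4 to 141) were 1 virgin and 1 parous vehicle rat and 1 virgin and 1 parous TGFBRi-treated rat, and their CSF1R lay between 31399 and 41564. In bulk samples, fewer cells of a type and less RNA per cell cannot be told apart.

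**Figure D1:**
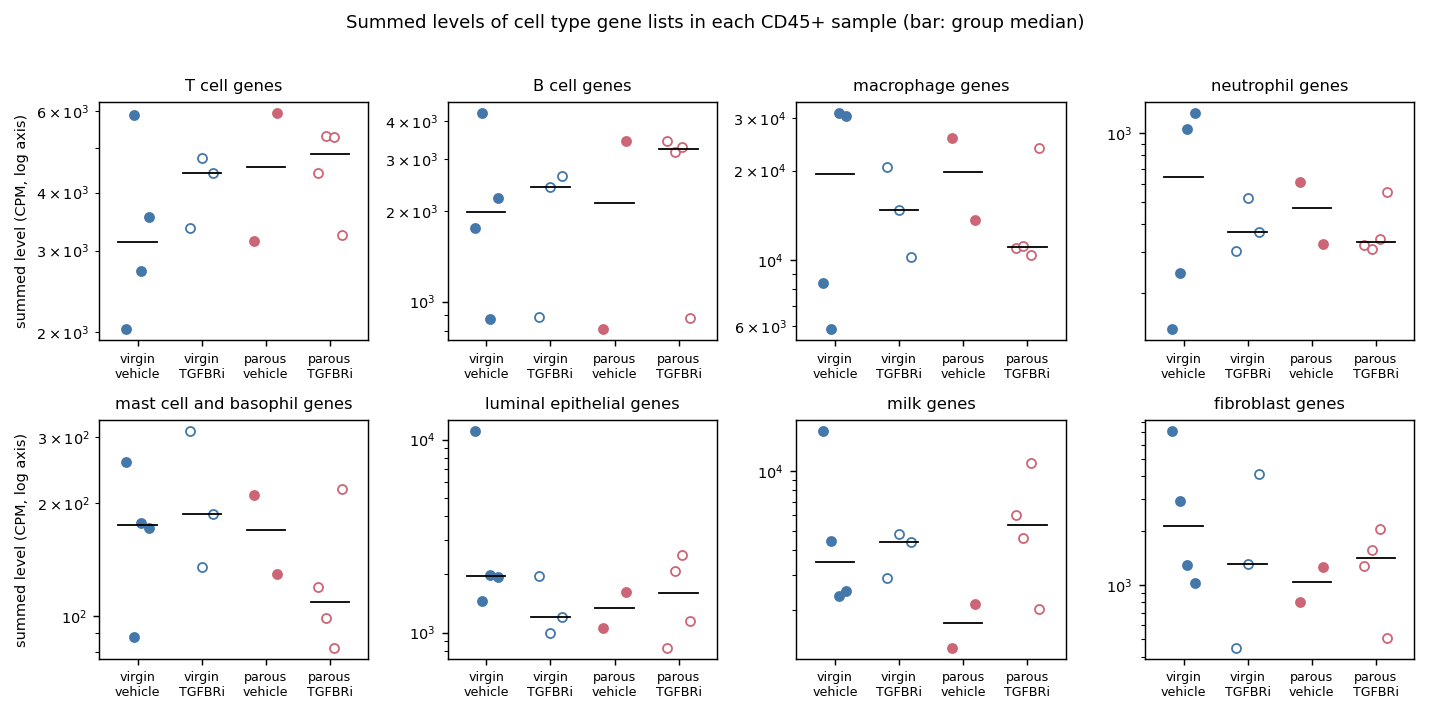
Summed level in CPM, on a log axis, of 8 gene lists in each of the 13 CD45+ samples by parity and treatment. Each point is 1 rat, filled for vehicle and open for TGFBRi, and bars mark group medians. Macrophage genes span 5850 to 31334 CPM in virgin and 10432 to 25829 CPM in parous rats, and no list shown separates the parity groups.

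No gene passed the threshold for parity in CD45+ cells. Of 13618 genes tested by limma with treatment as a covariate, 0 reached an adjusted p of 0.05 or less (0%). At an unadjusted p below 0.05 limma counted 356 genes (2.61%), of which 269 had higher (1.98%) and 87 lower (0.639%) values in parous rats. Among the 10147 genes with a mean of at least 50 reads, 159 had such a p, 90 with higher and 69 with lower values. Over single rats left out the count of 356 ranged from 236 (without parous TGFBRi replicate 3) to 663 (without virgin TGFBRi replicate 1). edgeR called 0 genes and counted 387 at such a p (2.84%). DESeq2 called 2 (0.0147%) and counted 555 (4.08%). The direction of the small shift across all genes depended on the method, with a median log2 difference of 0.09 by limma, 0.10 after TMM scaling, −0.03 by edgeR and −0.04 by DESeq2.

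The 2 genes that DESeq2 called, both as higher, rested on a few reads in parous vehicle rats. KCNK15, a potassium channel gene, stood at 0 in all 7 virgin rats, at 34.5 and 0.994 in the parous vehicle rats and at 0, 0, 1.03 and 0 in the parous TGFBRi-treated rats. CYP2A3, a cytochrome P450 gene of the nasal and lung lining, stood at 11.1 and 7.95 in the parous vehicle rats and at 0 in the other 11 samples. Neither gene had a value above 1.03 in a TGFBRi-treated rat. The smallest limma p of all genes belonged to CTRB1, the pancreatic protease precursor chymotrypsinogen B. It ranged from 0 to 11.4 in virgin rats, 5 of them at 0, and from 10.8 to 34.9 in parous rats, with a log2 difference of 4.20 (95% interval 2.81 to 5.60, adjusted p = 0.21 by limma). These 3 genes lie near the floor of detection and were chosen after their values were seen.

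The intervals state how large a difference these samples could still hold. For the 10147 genes with a mean of at least 50 reads, the median standard error of the log2 difference was 0.40. The 95% interval then reached 0.86 to either side of the estimate in the median gene, a 1.81-fold difference. For 4109 of these genes (40.5%) the whole interval lay within 1 log2 unit of 0, so that a 2-fold difference fell outside it. For the other genes the interval reached past 1 log2 unit in at least 1 direction.

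**Figure D2:**
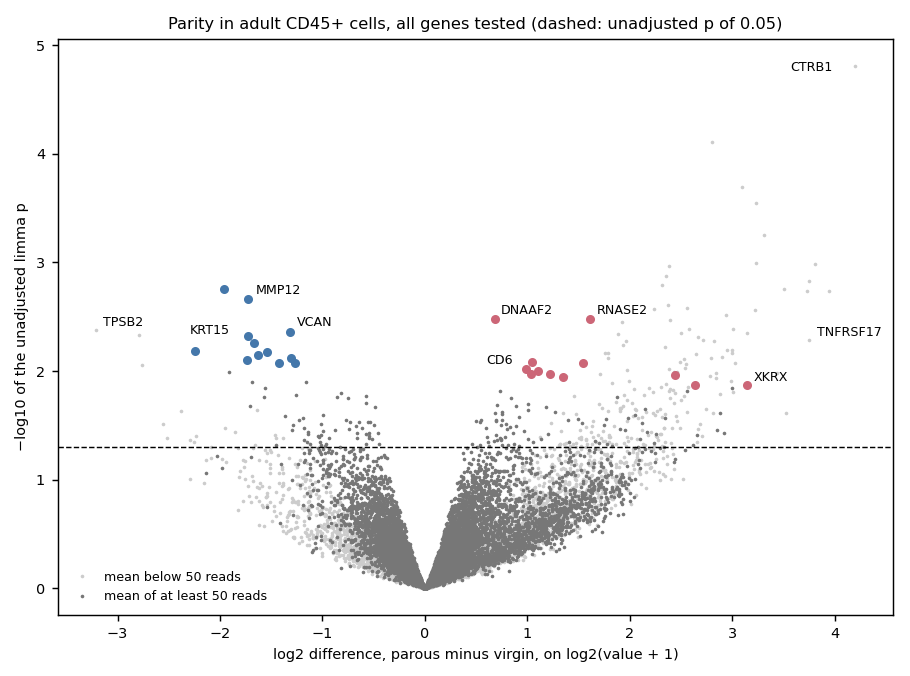
Log2 difference (parous minus virgin) against −log10 of the unadjusted limma p for 13618 genes. Light grey points have a mean below 50 reads, red and blue points are the 24 genes described by value, and the dashed line marks an unadjusted p of 0.05. The genes with the smallest p, such as CTRB1 at 4.20, lie among the light grey points.

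Because no gene passed, the genes described next are the 12 in each direction with the smallest unadjusted p among those with a mean of at least 50 reads. None passed the threshold: the adjusted p by limma was 0.995 for each of the 24. In none of the 24 did the groups separate completely. Among all 13618 genes, every parous value lay above every virgin value in 4 (0.0294%) and below in 1 (0.00734%). Of the 10147 genes with a mean of at least 50 reads, 1 lay above (0.00986%) and 1 below (0.00986%). These were COX11, an assembly factor of cytochrome c oxidase, and GPR107, a membrane protein of the secretory pathway, and both were chosen after their values were seen. COX11 ranged from 0 to 69.6 in virgin rats and was at least 73.5 in parous rats, with a median of 82.7, and its lowest value came from virgin TGFBRi replicate 2. GPR107 ranged from 373 to 695 in virgin and from 297 to 365 in parous rats.

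Among the 12 genes with higher values in parous rats were adhesion and surface genes of lymphocytes. CD6, a costimulatory receptor of T cells, ranged from 651 to 2621 with a median of 1713 in virgin rats and from 1633 to 4343 with a median of 2721 in parous rats. Its log2 difference was 0.98 (95% interval 0.28 to 1.69), and 4 of the 6 parous rats exceeded every virgin rat. ITGA4, the integrin α4 chain that carries lymphocytes into tissue, ranged from 449 to 2319 with a median of 1150 in virgin and from 1975 to 4390 with a median of 2893 in parous rats. The log2 difference of ITGA4 was 1.10 (0.31 to 1.90). Without the pair of libraries that stood apart these differences were 0.59 for CD6 and 0.67 for ITGA4. Without virgin TGFBRi replicate 2 alone, which held the lowest value of each, they were 0.76 and 0.71.

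The smallest p with higher values belonged to DNAAF2, a factor for assembly of ciliary dynein. DNAAF2 ranged from 3026 to 5410 with a median of 4290 in virgin rats and from 5237 to 8188 with a median of 6368 in parous rats. Its log2 difference was 0.69 (95% interval 0.27 to 1.11), and only the parous TGFBRi-treated rat at 5237 lay below the highest virgin rat. RNASE2, a ribonuclease stored in eosinophil granules, ranged from 44.3 to 302 with a median of 99.7 in virgin and from 216 to 539 with a median of 335 in parous rats. The log2 difference of RNASE2 was 1.61 (0.63 to 2.59), and rats at 216 to 302 were found in both groups. Rat ribonuclease genes of this family are near copies of each other, so that reads may not be assigned with certainty and the values are uncertain.

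SLC17A9, which loads ATP into vesicles, ranged from 87.3 to 463 in virgin and from 191 to 473 in parous rats. RAB11FIP4, a regulator of recycling endosomes, ranged from 72.8 to 408 in virgin and from 328 to 565 in parous rats. KIF3B, a kinesin motor of intracellular transport, ranged from 21.2 to 216 in virgin and from 135 to 259 in parous rats. Their log2 differences were 1.05, 1.22 and 1.54, and the lowest values of all 3 were virgin. That of RAB11FIP4 was 0.73 without the pair of libraries that stood apart. The other 5 genes with higher values were CACNB3, PLPPR3, RGS12, XKRX and CPXM2, with log2 differences between 1.03 and 3.14. For XKRX and CPXM2 the estimate rested on 2 virgin rats each at 0. The log2 differences of XKRX and CPXM2 were 3.14 and 2.64 by limma, 1.70 and 1.79 by edgeR, and 1.72 and 1.81 by DESeq2. Without the pair of libraries that stood apart they were 2.30 and 2.26 by limma, and that of PLPPR3 moved from 2.44 to 2.02.

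Among the 12 genes with lower values in parous rats was MMP12. This gene, which encodes an elastase secreted by macrophages, ranged from 3012 to 16251 with a median of 6523 in virgin rats. In parous rats MMP12 ranged from 1071 to 3859 with a median of 1904. The 5 lowest samples were parous, and the parous vehicle rat at 3859 overlapped the virgin rats at 3012 and 3098. The log2 difference was −1.73 (95% interval −2.71 to −0.74), which corresponds to a 3.31-fold lower level. It was −1.58 within vehicle rats, −1.84 within TGFBRi-treated rats and −1.75 without the pair of libraries that stood apart. With the summed levels of the macrophage and B cell lists as further covariates, a fit chosen after the data were seen, MMP12 had a log2 difference of −1.84 and an adjusted p of 0.244 by limma.

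Other macrophage genes are given beside MMP12 for comparison. CSF1R had a log2 difference of 0.42 (95% interval −1.31 to 2.16) and C1QA, a complement subunit made by tissue macrophages, one of −0.08 (−1.61 to 1.45). They were −0.36 and −0.34 without the pair of libraries that stood apart. In sorted basal and luminal cells MMP12 had medians of 0.498 and 0.346 CPM, against 131 CPM in CD45+ samples.

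Other genes with lower values in parous rats included a chemokine and genes of matrix and redox control. VCAN, the proteoglycan versican that monocytes and stromal cells make, ranged from 163 to 466 in virgin and from 67.1 to 259 in parous rats, with a log2 difference of −1.32 (95% interval −2.15 to −0.49). CCL1, a chemokine of activated T cells and mast cells, ranged from 36.4 to 366 in virgin and from 11.1 to 66.4 in parous rats, with a log2 difference of −1.67 (−2.76 to −0.58). In both genes the highest samples were virgin and the middle of the range was shared. NQO1, a quinone reductase, ranged from 763 to 5993 in virgin and from 528 to 2266 in parous rats, with a log2 difference of −1.43 (−2.43 to −0.43). SLC7A11, the cystine importer, ranged from 189 to 1048 in virgin and from 129 to 359 in parous rats, with a log2 difference of −1.31 (−2.21 to −0.41). NQO1 and SLC7A11 are both known targets of the oxidative stress factor NRF2, and their lower values were larger in TGFBRi-treated rats (−2.01 and −1.82) than in vehicle rats (−0.67 and −0.64), a difference of effects that did not pass a test.

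Several of the genes with lower values are better known from epithelium than from leukocytes. KRT15, a keratin of basal cells, ranged from 503 to 5063 with a median of 2815 in virgin and from 439 to 1739 with a median of 601 in parous rats, with a log2 difference of −1.73 (95% interval −2.83 to −0.62). In sorted basal cells of adult glands KRT15 had a median of 2903 CPM, against 66.1 CPM in CD45+ samples. Of the 12 genes with lower values, 3 had their highest median in CD45+ samples, 5 in basal and 4 in luminal cells. Of the 12 with higher values these counts were 7, 4 and 1. The same counts over all genes tested were not made, so whether either split is unusual was not tested. A further 5 genes with lower values, ECHDC2, NECTIN1, CTHRC1, MIA and ARHGAP8, had log2 differences between −2.25 and −1.27. That of ECHDC2 moved from −2.25 to −1.67 without the pair of libraries that stood apart.

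**Figure D3:**
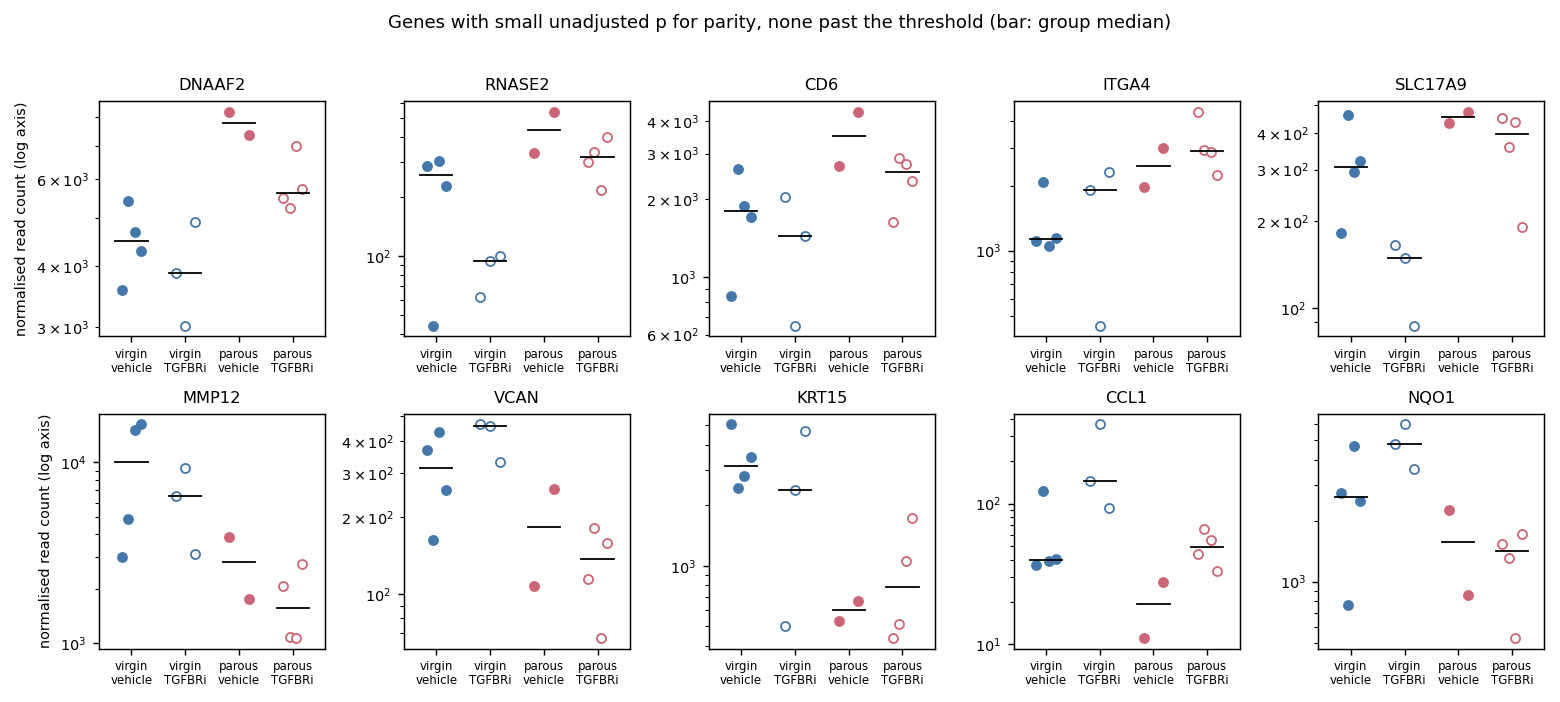
Normalised read counts, on a log axis, of 5 genes with higher and 5 with lower values in parous rats, none of them past the threshold. Each point is 1 rat, filled for vehicle and open for TGFBRi, and bars mark group medians. MMP12 lies between 1071 and 3859 in parous and between 3012 and 16251 in virgin rats.

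Gene lists for cell types and pathways held 0 genes past the threshold. Of 572 genes tested in 28 lists of leukocytes and pathways, 19 (3.32%) had an unadjusted p below 0.05, beside 2.61% of all genes tested. Most list genes had a mean of at least 50 reads, and in a limma fit of the 10147 such genes alone the share was 1.54%. These shares were not compared by a test. Of these 19, 8 had higher and 11 lower values in parous rats. The summed level of no list separated parous from virgin rats. The median log2 difference of 18 of all 36 lists changed sign when 1 of the 13 rats was left out, so that the list medians below describe these rats only. The list members with such a p are named below for that value, a choice made after the values were seen, and none of them passed the adjusted threshold.

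Of 24 T cell core genes tested, 15 had values above and 9 below 0, with a median log2 difference of 0.22, where the median of all genes was 0.09. Over all genes tested 58.3% lay above 0, which is the background for each such count below. This share was not counted for genes with a mean of at least 50 reads alone, to which most list genes belong. CD3E, a chain of the T cell receptor complex, ranged from 1944 to 5665 in virgin and from 2887 to 6314 in parous rats, with a log2 difference of 0.38 (95% interval −0.24 to 1.00). CD8A, the coreceptor of cytotoxic T cells, had a log2 difference of 0.21 (−0.58 to 1.00). For both genes a 2-fold higher level lay at the edge of the interval. Among 18 genes of T helper and regulatory T cells the median was 0.39. FOXP3, the master factor of regulatory T cells, ranged from 49 to 318 in virgin and from 242 to 372 with a median of 294 in parous rats, with a log2 difference of 1.18 (0.21 to 2.16). Parous rats lay close together in FOXP3 and virgin rats spread down to 49. Of 26 cytotoxic T and NK cell genes 11 lay above and 15 below 0, with a median of −0.07 that was −0.46 without the pair of libraries that stood apart. KLRC1, a lectin receptor of NK cells, ranged from 297 to 1507 in virgin and from 247 to 942 in parous rats, with a log2 difference of −0.83. NKG7, a granule protein, had a log2 difference of −0.63 (−1.74 to 0.49) and CCL5, a chemokine of cytotoxic cells, one of −0.72 (−1.94 to 0.50). Among 15 genes of tissue residence and checkpoints the median was 0.09, and −0.17 without the pair of libraries that stood apart.

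B cell genes had wide intervals because the samples spread so far. Of 20 tested, 13 lay above and 7 below 0, with a median of 0.28, and CD79B had a log2 difference of 0.36 (95% interval −3.23 to 3.95). The interval of CD79B thus left room for large differences either way. It had a log2 difference of 1.34 without the pair of libraries that stood apart, and the list medians were then 0.48 for B cells and 0.33 for plasma cells. Over single rats left out the B cell median ranged from −0.43 (without virgin TGFBRi replicate 1) to 0.78 (without parous vehicle replicate 1). Of 16 plasma cell genes 10 lay above 0, with a median of 0.10. TNFRSF17, the survival receptor of plasma cells known as BCMA, stood at 0 in 4 of 7 virgin rats and at 7.86, 39.9 and 66.8 in the others. In parous rats TNFRSF17 was at least 36.1 with a median of 67.2, and had a log2 difference of 3.76 (1.33 to 6.18) that rests on those zeros and was 2.07 by edgeR and by DESeq2. MZB1, a chaperone of antibody secretion, ranged from 7.63 to 836 in virgin and from 357 to 668 in parous rats, with a log2 difference of 1.73 (−0.38 to 3.85). For MZB1 this was 0.67 by edgeR, 0.62 by DESeq2 and 2.32 without the pair of libraries that stood apart. CCR10, a homing receptor of IgA plasma cells, ranged from 6.29 to 59.8 in virgin and from 43 to 88.1 in parous rats, with a log2 difference of 1.40 (0.18 to 2.62). In these 3 genes the 4 lowest samples were virgin. XBP1, the factor that drives antibody secretion, had a log2 difference of −0.16 (−0.76 to 0.44).

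Of 25 macrophage genes tested, 15 lay above and 10 below 0, with a median of 0.09, and none had an unadjusted p below 0.05. Among 13 monocyte genes the median was 0.28, and among 18 dendritic cell genes 0.31. CCL22, a chemokine of dendritic cells that draws regulatory T cells, ranged from 401 to 2182 in virgin and from 1614 to 3261 in parous rats, with a log2 difference of 1.01 (95% interval 0.18 to 1.84). In the list of lipid-laden macrophages and lysosome 10 genes lay above and 12 below 0. Besides MMP12 it held PLIN2, which coats lipid droplets, with a range from 12439 to 72906 in virgin and from 7355 to 29473 in parous rats and a log2 difference of −0.94 (−1.83 to −0.04). It also held ABCG1, which exports cholesterol, with a range from 2280 to 8010 in virgin and from 5162 to 10956 in parous rats and a log2 difference of 0.75 (0.11 to 1.40). APOC1, a lipoprotein component, ranged from 0 to 83.6 in virgin and from 14.3 to 34.8 in parous rats, with a log2 difference of 2.30 (0.38 to 4.22). The 4 members of this list with such a p thus lay 2 in each direction. The list median was −0.06 with and −0.26 without the pair of libraries that stood apart, and ABCG1 had a log2 difference of 0.48 without it. Of 15 genes of iron and heme handling 8 lay above 0, with a median of 0.01. Without the pair of libraries that stood apart the medians turned negative, at −0.18 for macrophages, −0.29 for monocytes and −0.18 for iron and heme handling, and the dendritic cell median was 0.04.

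Genes of mast cells and basophils had a median of −0.35, with 10 of 15 below 0. The median was −0.72 without the pair of libraries that stood apart, and over single rats left out it ranged from −0.71 (without virgin TGFBRi replicate 2) to −0.10 (without virgin TGFBRi replicate 1). CPA3, the carboxypeptidase of mast cell granules, ranged from 17.8 to 323 with a median of 138 in virgin and from 17.5 to 89.5 with a median of 27.9 in parous rats, with a log2 difference of −1.71 (95% interval −3.12 to −0.30). TPSB2, a mast cell tryptase, ranged from 16.4 to 306 in virgin and from 0 to 24.4 in parous rats, with a log2 difference of −3.21 (−5.23 to −1.20). CMA1, a mast cell chymase, ranged from 38.8 to 133 in virgin and from 8.73 to 61.1 in parous rats, with a log2 difference of −1.57 (−2.83 to −0.32). In all 3 genes the highest samples were virgin and the groups overlapped. KIT, the stem cell factor receptor, had a log2 difference of 0.77 (−1.77 to 3.32) that turned to −0.72 without the pair of libraries that stood apart and to −0.39 by edgeR and by DESeq2. Virgin TGFBRi replicate 2 held 4.71 of it and the other 12 samples 240 or more. MCPT9 had a log2 difference of 0.22 (−0.91 to 1.36). Mast cell proteases form a family of near copies in the rat, and their reads may not be assigned with certainty. Neutrophil genes had a median of −0.13, with 7 of 19 above 0, and of −0.24 without that pair. Of 8 eosinophil genes tested 7 lay above 0, with a median of 0.80 that was −0.03 without the pair of libraries that stood apart.

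**Figure D4:**
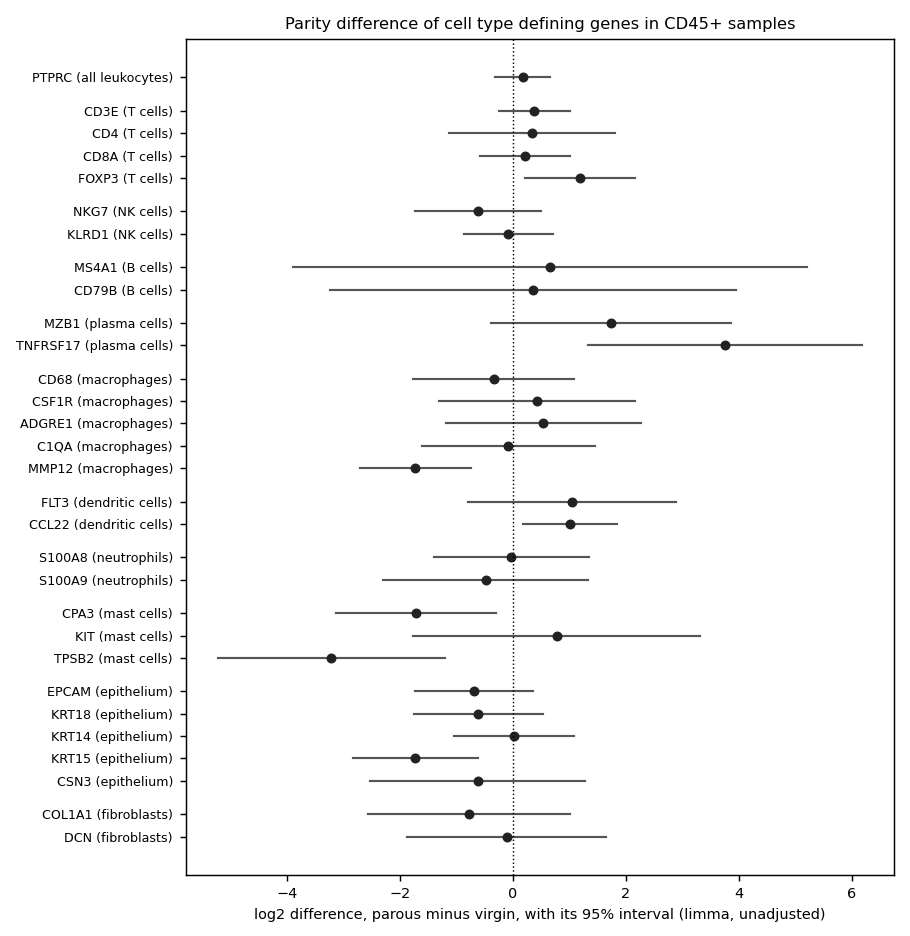
Log2 difference (parous minus virgin) of genes that mark cell types, with the 95% interval of the limma fit not adjusted for the number of genes. Each point is 1 gene over 13 rats. The interval of CD79B runs from −3.23 to 3.95, that of CD3E from −0.24 to 1.00, and those of MMP12 and KRT15 lie below 0. MMP12 and KRT15 are among the 24 genes chosen for a small unadjusted p, so that intervals away from 0 follow from the choice. The intervals of FOXP3, TNFRSF17, CCL22, CPA3 and TPSB2 also leave out 0. Each of these had an unadjusted limma p below 0.05, none passed the adjusted threshold, and the genes drawn were chosen with values known.

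Mediators of inflammation lay more often below than above 0. Of 33 cytokine and chemokine genes tested, 12 lay above and 21 below 0, with a median of −0.27. CXCL2 and CXCL3, chemokines that attract neutrophils, had log2 differences of −1.14 (95% interval −2.19 to −0.09) and −1.18 (−2.31 to −0.04). CXCL2 ranged from 2767 to 21010 in virgin and from 1764 to 10926 in parous rats. CCL2, which attracts monocytes, had a log2 difference of −0.92 (−1.95 to 0.10), and of −0.47 without the pair of libraries that stood apart. For interferon response genes 20 of 36 lay above 0, with a median of 0.09, and for complement genes 10 of 17, with a median of 0.06. Antigen presentation by MHC class II had a median of −0.11 over 15 genes and by MHC class I one of 0.11 over 18 genes. CD74, the class II chaperone, ranged from 374401 to 1686590 in virgin and from 505108 to 1244990 in parous rats. Genes of the rat RT1 complex, which hold the MHC, are near copies and their values are uncertain. Without that pair the median of MHC class I genes was −0.01, that of interferon response genes was −0.0048 and that of complement genes was 0.10.

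Lists of cell state had medians between −0.20 and 0.42. Cell cycle genes lay above 0 in 28 of 34, with a median of 0.33, and none had an unadjusted p below 0.05. MCM2, a helicase subunit of replication, ranged from 988 to 1992 in virgin and from 1278 to 1994 in parous rats. Immediate early genes, which respond within minutes to handling and dissociation of tissue, had a median of 0.20 and heat shock chaperones one of −0.09. Genes of the TGFβ pathway, the target of the drug, had a median of 0.26 with 21 of 28 above 0, and the median was −0.01 without the pair of libraries that stood apart. SMAD3, which carries the TGFβ signal to the nucleus, ranged from 784 to 1897 in virgin and from 754 to 1287 in parous rats, with a log2 difference of −0.55 (95% interval −1.06 to −0.04). Circadian clock genes had a median of 0.24, hormone receptors 0.42, glycolysis and hypoxia genes 0.11, and ribosomal protein genes 0.12. Oxidative phosphorylation genes lay below 0 in 20 of 24, with a median of −0.20. Without the pair of libraries that stood apart the sign turned for immediate early (−0.15), clock (−0.04), hormone receptor (−0.17), glycolysis and hypoxia (−0.13) and oxidative phosphorylation genes (0.13), while the median of cell cycle genes was 0.25 and that of ribosomal protein genes 0.49. ARNTL, the clock factor BMAL1, ranged from 713 to 1538 in virgin and from 607 to 1135 in parous rats, with a log2 difference of −0.54 (−1.06 to −0.03).

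Of 8 lists of other gland cells, 5 had medians below 0 and 3 above, and these values stand beside the leukocyte results above. Over these lists 41 of the genes tested (38.3%) lay above 0, beside 58.3% of all genes tested. An unadjusted p below 0.05 was found in 4 (3.74%), beside 2.61% of all genes and 1.54% in the fit of genes with a mean of at least 50 reads. These were KRT15, CLDN3, a tight junction protein (−1.19), DPP4, a surface peptidase (0.92), and LEP, the fat hormone leptin (1.87 by limma and 5.12 by edgeR, on values of 0 in all 7 virgin and 3 parous rats), as log2 differences. The median log2 difference was −0.63 for milk genes, −0.44 for fibroblast, −0.35 for luminal and −0.17 for basal epithelial genes. For endothelial genes it was 0.21, for adipocyte genes 0.28, for red cell and platelet genes −0.07 and for skeletal muscle genes 0.16. Without the pair of libraries that stood apart the medians were −0.28 for milk, −0.28 for fibroblast, −0.24 for luminal and −0.13 for basal epithelial genes, and that of endothelial genes turned to −0.11. For adipocyte genes it was then 0.11, for red cell and platelet genes −0.31 and for skeletal muscle genes 0.21. KRT5 and KRT14, the other keratins of basal cells, had log2 differences of −0.87 and 0.01, and of −0.61 and −0.30 without that pair.

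Within each treatment, where the parity comparison needs no covariate, limma again called 0 genes. In vehicle rats, with 2 parous against 4 virgin, 274 genes had an unadjusted p below 0.05, and in TGFBRi-treated rats, with 4 against 3, 449 did. The difference between these effects was tested as a parity by treatment interaction. limma called 0 genes for it (0%), with 368 at an unadjusted p below 0.05 (2.70%). Without virgin TGFBRi replicate 2 limma again called 0 genes, but with 1206 at such a p (8.88%). edgeR called 0 with 445 at such a p (3.27%), and DESeq2 called 6 (0.0441%) with 551 (4.05%). The 6 were MAB21L1, TMEM67, HSPA12A, DDIT4L2, MARCO and PDGFD, of which all but PDGFD stood at 0 in all 3 virgin TGFBRi-treated rats. MARCO, a scavenger receptor of macrophages, stood at 500 in virgin vehicle replicate 1 and at no more than 44.8 elsewhere.

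All 24 genes described by value had the same direction within both treatments, a description that shares its rats with the choice of the genes. Lists behaved less evenly. Of 36 lists, 22 had medians of opposite sign in vehicle and in TGFBRi-treated rats, among them B cells (−0.24 and 0.57), macrophages (0.52 and −0.24) and ribosomal proteins (−0.36 and 0.51). Milk genes had a median of −1.40 in vehicle rats and 0.11 in TGFBRi-treated rats. The medians of mast cells and basophils were alike, at −0.60 and −0.64, and so were those of cell cycle genes, at 0.31 and 0.35.

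**Figure D5:**
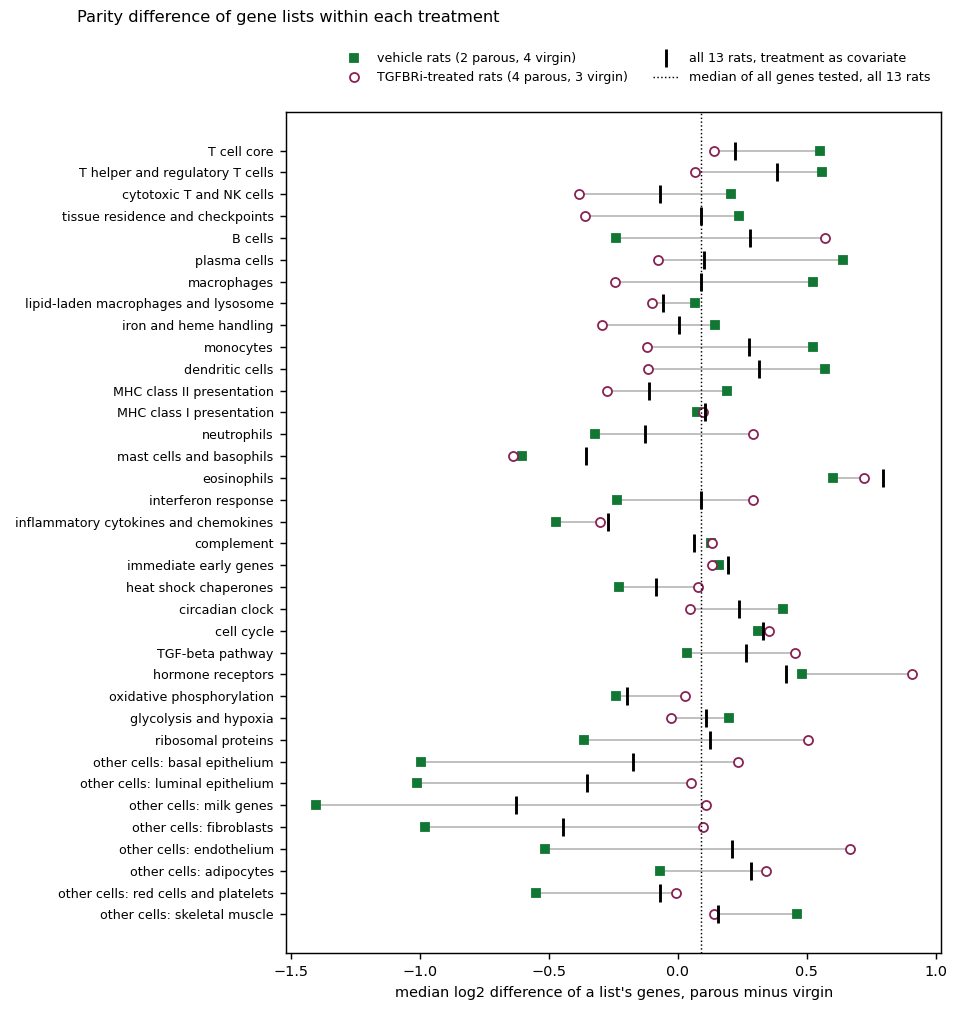
Median log2 difference (parous minus virgin) of the genes tested in each of 36 lists, in vehicle rats (squares), in TGFBRi-treated rats (circles) and in all 13 rats with treatment as a covariate (vertical ticks). The dotted line marks the median of all genes, 0.09. Milk genes lie at −1.40 in vehicle and 0.11 in TGFBRi-treated rats, while mast cell and basophil genes lie at −0.60 and −0.64.

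Basal and luminal epithelial cells of the same experiment, with 16 rats each, give the setting for the leukocyte result. By the same model limma called 0 of 13442 genes for parity in basal cells (0%), with 2094 at an unadjusted p below 0.05 (15.6%). DESeq2 called 268 there (1.99%) and edgeR 0, with 2227 (16.6%) and 1986 (14.8%) at such a p. In luminal cells limma called 2 of 14243 genes (0.0140%), both higher in parous rats, with 1002 at an unadjusted p below 0.05 (7.04%). edgeR called 1 (0.00702%) with 1033 at such a p (7.25%), and DESeq2 17 (0.119%) with 1148 (8.06%). The 2.61% of genes at such a p in CD45+ cells was the lowest share of the 3 fractions in these fits. Array weights, which count samples that stand apart for less, gave a CD45+ share of 13.5% by limma. Such weights were not fitted in basal or luminal cells, so the ranking holds only for the fits without them. In the same 13 rats the share was 16.4% in basal and 7.37% in luminal cells. The shares were not compared by a test.

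The 2 genes that limma called in luminal cells were PIGR and GATA2, and edgeR called PIGR alone. GATA2 also dropped out of the limma calls, while PIGR stayed, without parous vehicle replicate 2 or 4 or virgin TGFBRi replicate 3. PIGR, the receptor that carries IgA across epithelium into milk, ranged from 7.25 to 32.8 CPM in 8 virgin and from 22.3 to 92.9 CPM in 8 parous rats, with a log2 difference of 2.15 (adjusted p = 0.0146 by limma). GATA2 ranged from 0.294 to 16.7 CPM in virgin and from 8.00 to 60 CPM in parous rats, with a log2 difference of 4.55 (adjusted p = 0.0146 by limma). Neither call held when the luminal samples were limited to the 13 rats with a CD45+ sample, where the log2 differences were 1.95 for PIGR and 4.47 for GATA2 and the adjusted p by limma 0.294 and 0.392. In all basal samples the log2 differences were 2.59 for PIGR and 1.56 for GATA2, with adjusted p of 0.242 and 0.510 by limma. In CD45+ cells PIGR had a log2 difference of −0.15 and GATA2, a factor of mast cells and basophils, one of 1.22, with adjusted p of 0.996 and 0.995 by limma. These CD45+ values were 0.12 and 0.74 without the pair of libraries that stood apart, and 0.36 and 0.65 by edgeR.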

How the data were processed

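Bulk RNA-seq of sorted CD45+ cells from 13 adult rats, 1 library each, was analysed with 16 basal and 16 luminal samples of the same experiment. Libraries were made by the SMARTer v4 kit from under 10 ng of RNA, a kit that does not mark strand. The authors aligned reads with STAR 2.5.1b to rn6, counted them without strand by htseq-count 0.6.1p1 on refGene genes and divided counts by a DESeq2 1.30.1 size factor, and the deposited values are this signal by gene symbol. Dividing each sample by its smallest step gave whole reads for 100% of values above 0 (tolerance 0.001); for parous vehicle replicate 2 the step was close to 1, which leaves that recovery less certain. Rows of reads not assigned to a single gene stayed out of totals and tests.

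Genes whose values sum to at least 10 were compared on log2(value + 1), on which the difference of a low gene depends on the 1 added and on samples at 0, by limma 3.58.1 (its trend and robust options). The model held parity and treatment, and the threshold was 0.05 on p adjusted by Benjamini-Hochberg. The interaction used the 4 group means. edgeR 4.0.16 (quasi-likelihood, TMM) and DESeq2 1.42.0 on recovered reads were alternatives. Fits were tested on simulated data. Genes described by value were, in each direction, the 12 with the largest change past the threshold, a mean of at least 50 reads and separate groups, filled up, since none passed, by smallest unadjusted p; 1 of these 24 is not reported here. Members of 36 gene lists could be named if past the threshold or among the 4 with the highest level in a list, and only some of these are described. Others named, for an unadjusted p below 0.05 or as cell type markers, were chosen with values known. The genes, lists and comparison were chosen with earlier results of these data known. P-values measure the spread between rats. R 4.3.3 and Python 3.11.15 were used.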

Additional observations from a re-analysis of the deposited data

Results flagged for a closer look

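In 15 of 120 groups of 4 samples tested, 1 sample lay further from its 3 neighbours than Dixon's 95% critical value of 0.829 allows, and chance alone flags about 1 in 20 groups. The groups were the virgin vehicle and parous TGFBRi rats, for 60 genes and list levels.

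In virgin vehicle rats, replicate 2 was lowest in RNASE2, at 44.3 normalised reads against 226 to 302 in the others. It was highest in ITGA4, at 2083 against 1052 to 1150, and in CCL1, at 123 against 36.4 to 40.6. The same rat was lowest in the summed level of lipid-laden macrophage and lysosome genes, at 4166 CPM against 11298 to 13699 CPM, and of complement genes, at 1191 CPM against 4930 to 5747 CPM.

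Virgin vehicle replicate 1 was highest in CTHRC1, at 206 normalised reads against 69.2 to 82.9. It was also highest in plasma cell genes, at 1696 CPM against 1044 to 1102 CPM, in basal epithelial genes, at 1748 CPM against 582 to 668 CPM, and in luminal epithelial genes, at 11051 CPM against 1454 to 1980 CPM.

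In parous TGFBRi-treated rats every such sample was replicate 4. It was highest in macrophage genes, at 23851 CPM against 10432 to 11128 CPM, and in monocyte genes, at 7626 CPM against 4425 to 4639 CPM. It was also highest in circadian clock genes, at 2282 CPM against 1215 to 1236 CPM, and in hormone receptor genes, at 647 CPM against 273 to 289 CPM. It was lowest in B cell genes, at 878 CPM against 3167 to 3447 CPM, and in ribosomal protein genes, at 7055 CPM against 19048 to 23174 CPM.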

How the results depend on the processing

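For parity in CD45+ cells the count of called genes was 0 in limma and stayed at 0 with other pseudocounts, filters, TMM scaling, edgeR, no covariate, group means, thinned reads and within either treatment. It was 2 with DESeq2 and 1 with array weights (CTRB1, adjusted p = 0.0261). Leaving out 1 rat at a time gave 0 to 2: 2 without virgin vehicle replicate 2 (CTRB1, adjusted p = 0.0114, and CCDC68, adjusted p = 0.0413) and 1 without parous TGFBRi replicate 1 (SPAG6L, adjusted p = 0.033). Alternatives chosen after seeing the data, leaving out the pair of libraries that stood apart or adding macrophage and B cell levels as covariates, gave 0. The interaction count of 0 became 6 with DESeq2 and ranged from 0 to 0 over rats left out. The parity count in basal cells was 0 by limma, became 268 with DESeq2 and ranged from 0 to 1 over rats left out. The parity count in luminal cells was 2 by limma and became 1 with edgeR, 17 with DESeq2 and 0 in the 13 rats with a CD45+ sample, and ranged from 0 (without parous TGFBRi replicate 1) to 3 over rats left out. The cause of these changes was not tested. All 24 genes described by value kept their direction in all 600 combinations of gene and alternative. These alternatives share their rats with the choice of the genes. Array weights and the other filters were left out of this count and of the next. Of 900 list medians under alternatives, 891 moved by less than the spread between rats in the mean log2 level of the list's genes, and 9 moved further. That spread is wide, up to 2.01 for B cells, whose main median was 0.28, so that this count says little about stability. Of the 900, 799 had the sign of the main value and the others, in 31 of the 36 lists, the opposite one. No paired analysis was possible because no virgin and parous sample came from one animal and replicate numbers only name samples within a group.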
